A study of Homo sapiens with 6 samples.

Results

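The homologous recombination, Fanconi anemia and ATR checkpoint genes are 49 listed genes out of the 63140 in the deposited count table. They were chosen by name for their role and not by a rule on their values, though with earlier results of these data known. They were measured by poly-A RNA-seq in NOZ, an established human gallbladder cancer line, and in NOZ-R, a line derived from it by stepwise exposure to rising doses of gemcitabine, a nucleoside analogue. Each line was represented by 3 libraries, and all 49 genes had enough counts to be tested. How many clones NOZ-R goes back to, whether drug was present at harvest and whether replicates came from separate cultures are not stated in the labels, so p-values reflect library-to-library spread alone, possibly technical.

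A stalled replication fork exposes single-stranded DNA, which replication protein A covers and which recruits the ATR kinase. ATR and its effector CHEK1 hold back further origin firing and mitosis, while ATM and CHEK2 respond to double-strand breaks. The Fanconi core complex attaches ubiquitin to the FANCD2 and FANCI pair at blocked forks and crosslinks, and the BRCA proteins with the strand exchange factors serve repair of breaks from the sister chromatid. Gemcitabine is built into DNA and depletes deoxynucleotides, which stalls forks.

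Most of the changes in NOZ-R were decreases of less than 2-fold. Of the 49 genes, 21 were lower, 7 were higher and 21 did not pass (edgeR's quasi-likelihood test, adjusted p below 0.05 over all 14386 tested genes). Among all tested genes 60.2% passed, 29.8% lower and 30.4% higher, against 42.9% and 14.3% of the 49. A passing decrease of at least 0.5 on the log2 scale was seen for 15 of the 49 genes (30.6%, against 18.7% of all tested genes), and a passing increase of that size for 1, MDC1 (2.04%, against 17.7%). A decrease of at least 2-fold was estimated for 3 genes, FANCB, FANCG and XRCC2, which is 6.12% of the 49 against 7.57% of all tested genes. The median log2 fold change was -0.18 for the 49 genes and -0.01 for all tested genes. Summed over the 49 genes, expression was 2457, 2705 and 2471 CPM (counts scaled to library size, here with TMM factors) in NOZ replicates 1 to 3 and 2185, 2244 and 2240 CPM in NOZ-R replicates 1 to 3, with no overlap between the lines. Gene by gene, all 3 NOZ-R libraries lay below all 3 NOZ libraries for 22 of the 49 (against 32.4% of all tested genes) and above them for 9 (against 32.9%).

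How the libraries are scaled affects the smaller changes. With scaling by library size alone, which moved the median of all genes from -0.01 to -0.14, 28 of the 49 genes were lower and 3 were higher, and the higher share of the calls went from 25% to 9.68%. Over all tested genes the same scaling gave 38.0% lower and 23.1% higher, and the higher share of the calls went from 50.5% to 37.8%. The 3 that stayed higher were MDC1, TIPIN and TIMELESS (edgeR adjusted p = 0.04997 for TIMELESS), and the 21 lower genes all kept their call. The 7 added lower genes were CHEK1, TOPBP1, RPA3, RAD51B, RAD54B, FANCF and RECQL.

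**Figure D1:**
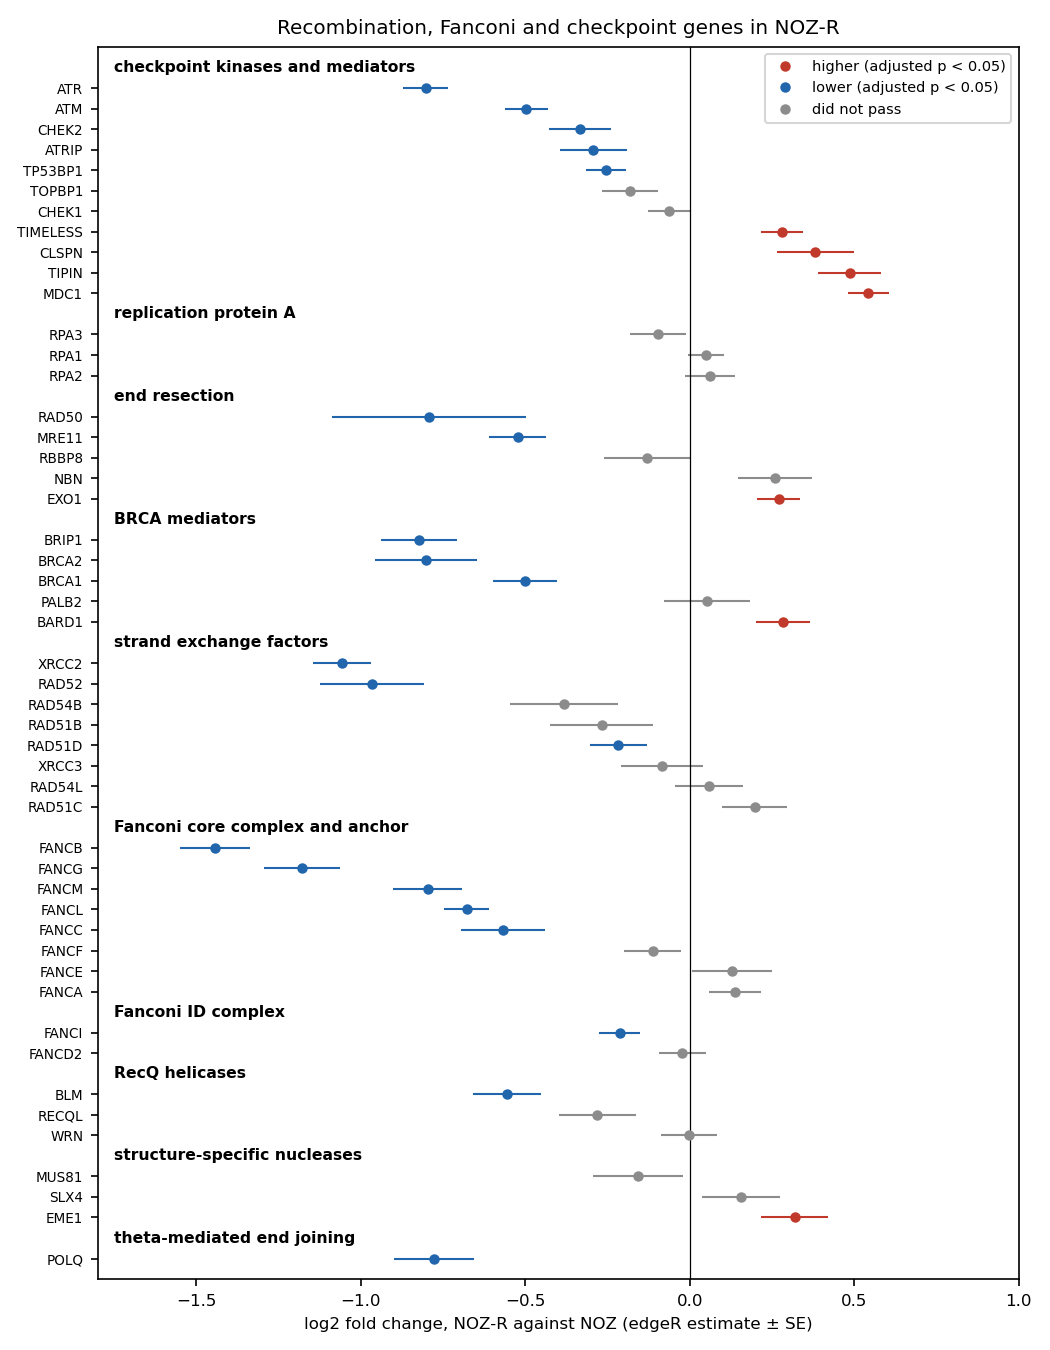
Each point is the log2 fold change of a gene between NOZ-R and NOZ (x axis, edgeR estimate with its standard error), grouped on the y axis by role and colored by call. The 5 lower Fanconi core genes reach from -0.57 to -1.45, and the 7 higher genes lie between 0.27 and 0.54.

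The upstream sequences of the genes with the largest passing decreases (FANCB, FANCG) and increases (MDC1, TIPIN) are shown because the genes were measured moving in opposite directions. They are the 250 bases before the annotated start in RefSeq (GRCh38.p14), written 5' to 3' on the gene's strand. Where a gene has several starts, the one farthest downstream was taken. Capitals mark matches on either strand to E2F-type letters (TTTCCCGC, TTTGGCGC, TTTCGCGC or TTTGCCGC, which can overlap one another), to the cell cycle homology element TTTGAA or to the CCAAT box, 3 motifs common in promoters of cell cycle genes.
FANCB, chrX:14873070-14873319, minus strand: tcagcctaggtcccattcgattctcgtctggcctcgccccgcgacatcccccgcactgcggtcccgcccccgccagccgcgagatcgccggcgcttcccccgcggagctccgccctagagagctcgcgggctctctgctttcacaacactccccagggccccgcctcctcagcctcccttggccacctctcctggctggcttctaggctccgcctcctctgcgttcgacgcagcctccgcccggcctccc
FANCG, chr9:35079943-35080192, minus strand: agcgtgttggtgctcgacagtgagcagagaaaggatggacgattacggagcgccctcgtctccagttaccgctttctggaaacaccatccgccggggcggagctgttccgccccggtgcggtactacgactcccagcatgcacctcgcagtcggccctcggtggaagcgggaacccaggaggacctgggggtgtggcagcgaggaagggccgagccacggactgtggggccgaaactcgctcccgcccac
MDC1, chr6:30717282-30717531, minus strand: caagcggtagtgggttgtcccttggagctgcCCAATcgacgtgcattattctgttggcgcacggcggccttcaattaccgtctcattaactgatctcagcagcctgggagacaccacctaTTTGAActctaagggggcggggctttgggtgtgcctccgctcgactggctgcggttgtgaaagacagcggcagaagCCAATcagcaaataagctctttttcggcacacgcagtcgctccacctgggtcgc
TIPIN, chr15:66356686-66356935, minus strand: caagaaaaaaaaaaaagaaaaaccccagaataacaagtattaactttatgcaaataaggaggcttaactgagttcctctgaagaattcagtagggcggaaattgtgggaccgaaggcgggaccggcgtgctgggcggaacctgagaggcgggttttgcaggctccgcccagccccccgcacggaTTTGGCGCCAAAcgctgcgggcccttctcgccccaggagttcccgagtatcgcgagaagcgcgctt
None of these letters occurred in the FANCB and FANCG windows. MDC1 held 2 CCAAT matches and 1 TTTGAA match, and TIPIN held a pair of overlapping E2F-type matches that read TTTGGCGC on each strand, 54 bases before the start. A window was found for 43 of the 49 genes. Of these, 21 held a CCAAT box (48.8%, against 32.7% of 27305 RefSeq windows of the same length), 3 held TTTGAA (6.98% against 13.9%) and 2 held an E2F-type match (4.65% against 2.74%). The RefSeq windows were not limited to tested genes or matched for base composition. Their median GC content was 57.6%, against 62.4% for the 43. CCAAT was present in 9 of 20 windows of lower genes and in 3 of 7 of higher genes. TTTGAA was present in 2 of the 20 and 1 of the 7, and E2F-type letters in 0 of the 20 and 1 of the 7. These are matches of letters, not measured binding.

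Among the 11 checkpoint kinases and mediators, the apical kinases were lower while the fork protection mediators were higher. ATR (chromosome 3, 142449235 to 142578826, GRCh38), the kinase that answers to stalled forks, measured 94.8, 100.3 and 96.2 CPM in NOZ replicates 1 to 3 and 51.4, 57.4 and 58.3 CPM in NOZ-R. All NOZ-R libraries were well below all NOZ libraries (log2 fold change -0.80, SE 0.0680, edgeR adjusted p = 2.67e-07), or 1.74-fold lower. Its exons share 16.4% of their bases with an antisense gene model, and counting is not stated to use strand. ATM (chromosome 11, 108222484 to 108369102), the kinase activated at double-strand breaks, measured 129.5, 141 and 129 CPM in NOZ and 88.7, 95.7 and 98.6 CPM in NOZ-R, again without overlap. It fell by 0.497 log2 units (SE 0.0643, edgeR adjusted p = 1.58e-05).

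Of the effector kinases CHEK2 passed and CHEK1 did not, and the difference between them was not tested. CHEK1 (chromosome 11, 125625136 to 125676255), the kinase downstream of ATR, had 88.9, 99.7 and 94.5 CPM in NOZ and 89.0, 89.3 and 92.6 CPM in NOZ-R. The lines overlapped, and its log2 fold change of -0.063 ± 0.0631 did not pass (SE, edgeR adjusted p = 0.404). With scaling by library size alone it passed as lower (log2 fold change -0.19, edgeR adjusted p = 0.0175). CHEK2 (chromosome 22, 28687743 to 28742422), the kinase downstream of ATM, had 19.4, 17.8 and 19.8 CPM in NOZ and 15.9, 15.2 and 14.0 CPM in NOZ-R and was lower without overlap (log2 fold change -0.33, SE 0.0952, edgeR adjusted p = 0.00801). Of the partners of these kinases, ATRIP, the subunit that brings ATR to covered single strands, was lower at -0.29 (edgeR adjusted p = 0.0225), with 27.9% of its exon bases shared with TREX1. That call was lost without NOZ replicate 3 and without NOZ-R replicate 3. TP53BP1, which shields broken ends from resection, was lower at -0.26 (28.7% of exon bases shared with TUBGCP4 on the other strand), and TOPBP1, the activator of ATR, had -0.18 and did not pass (edgeR adjusted p = 0.0770). TOPBP1 had -0.067 without NOZ replicate 2 (edgeR adjusted p = 0.288) and passed as lower in 7 of 18 other settings.

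MDC1 (chromosome 6, 30699807 to 30717889), the scaffold that binds phosphorylated histone H2AX beside a break, had the largest increase of the 49 genes. It measured 48.5, 51.0 and 48.1 CPM in NOZ and 71.8, 71.2 and 72.2 CPM in NOZ-R, with a gap between the lines several times the spread within either. The log2 fold change was 0.54 (SE 0.0631, with edgeR adjusted p = 5.69e-06), or 1.46-fold, on a chromosome whose tested genes had a median of 0.33. The fork protection complex genes both rose. TIPIN (chromosome 15, 66336206 to 66386746), which shares 21.02% of its exon bases with a pseudogene, went from 18.7, 17.1 and 21.5 CPM to 28.0, 26.2 and 25.8 CPM, without overlap (log2 fold change 0.49, SE 0.0960, edgeR adjusted p = 0.000621). Its partner TIMELESS rose by 0.28 (SE 0.0625, with edgeR adjusted p = 0.00157). CLSPN, the claspin adaptor through which ATR reaches CHEK1, rose by 0.38 (SE 0.116, with edgeR adjusted p = 0.0116). Its NOZ values of 36.4, 47.3 and 31.8 CPM were spread widely, and the highest lay just below the lowest NOZ-R value of 47.7 CPM. Relative to its chromosome it did not pass (0.21, edgeR adjusted p = 0.135).

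**Figure D2:**
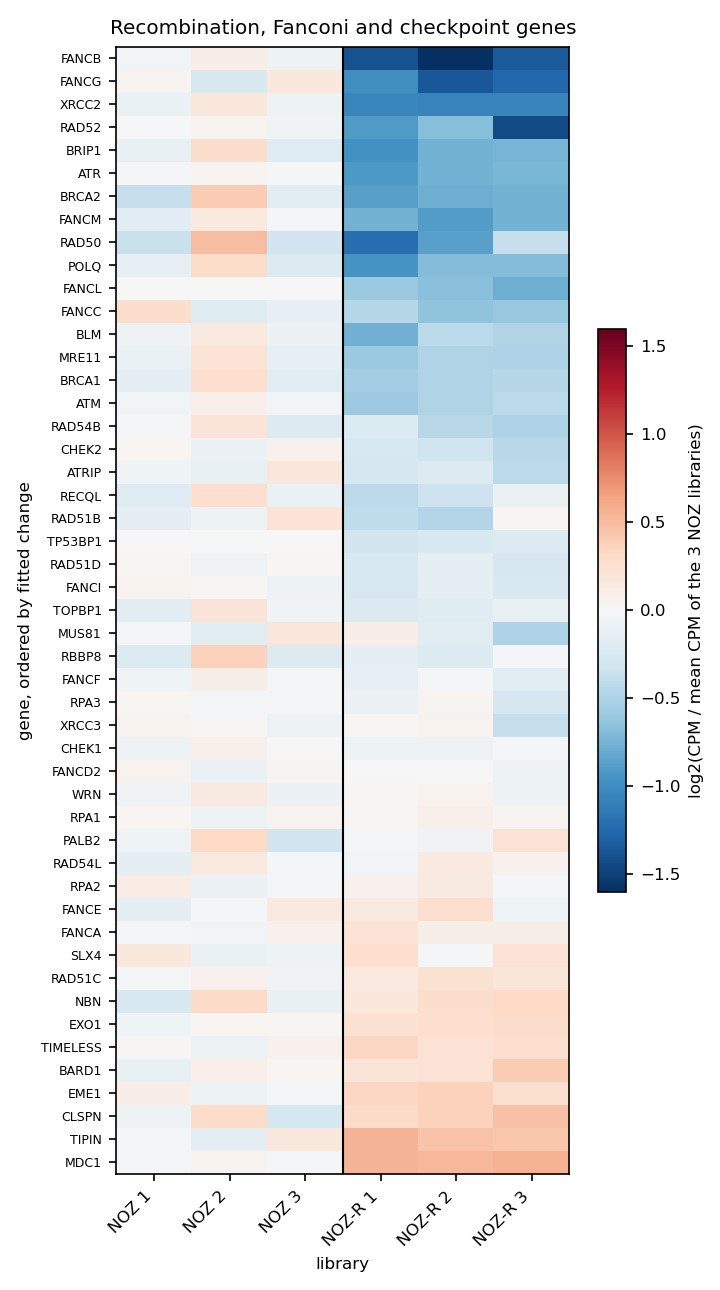
Rows are the 49 genes ordered by fitted change, columns are the 6 libraries, and color gives the log2 ratio of CPM to the mean of the 3 NOZ libraries. NOZ replicate 2 is visibly above the other NOZ libraries for genes such as BRCA2 (60.2 CPM against 35.2 and 40.4 CPM) and RBBP8.

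Replication protein A, the heterotrimer that coats single-stranded DNA, showed no passing change in any subunit. RPA2 measured 57.0, 49.5 and 51.5 CPM in NOZ and 55.3, 58.0 and 51.6 CPM in NOZ-R, with overlapping lines (log2 fold change 0.061, SE 0.0764, edgeR adjusted p = 0.507). RPA3 measured 44.1, 42.5 and 42.6 CPM in NOZ and 40.5, 44.5 and 35.7 CPM in NOZ-R (log2 fold change -0.097, SE 0.0844, edgeR adjusted p = 0.337). RPA1 had 0.048 (SE 0.0551, with edgeR adjusted p = 0.468). With scaling by library size alone RPA3 passed as lower (log2 fold change -0.23, edgeR adjusted p = 0.0325).

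The end resection genes, whose products trim broken ends to single strands, went in both directions. MRE11 (chromosome 11, 94415578 to 94493908), the nuclease that starts resection, measured 94.2, 117 and 92.4 CPM in NOZ and 67.4, 72.5 and 71.8 CPM in NOZ-R, and fell without overlap by 0.52 log2 units (SE 0.0870, edgeR adjusted p = 0.000152). EXO1 (chromosome 1, 241847967 to 241895148), the exonuclease that extends it, rose from 47.2, 50.7 and 50.4 CPM to 58.7, 59.7 and 60.3 CPM, a narrow but complete separation (log2 fold change 0.27, SE 0.0657, edgeR adjusted p = 0.00289). Relative to its chromosome EXO1 did not pass (0.10, edgeR adjusted p = 0.206). NBN, the third subunit of the MRE11 complex, had 53.3, 77.9 and 58.4 CPM in NOZ and 71.1, 77.0 and 79.0 CPM in NOZ-R. It did not pass (log2 fold change 0.26 ± 0.112, SE, edgeR adjusted p = 0.0605), and without NOZ replicate 2 it was higher at 0.44 (edgeR adjusted p = 6.61e-06). RBBP8, the CtIP cofactor, had -0.13 (edgeR adjusted p = 0.408), with 0.093 without NOZ replicate 2 (edgeR adjusted p = 0.255).

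RAD50 had the fewest counts and the largest SE of the 49 genes. It had 46, 75 and 35 counts in NOZ and 23, 26 and 34 counts in NOZ-R, or 2.30, 4.15 and 2.37 CPM against 1.27, 1.61 and 2.28 CPM (log2 fold change -0.79, SE 0.295, edgeR adjusted p = 0.0321). In the GENCODE annotation 79.7% of its exon bases are shared with another gene model on the same strand, which has 0 counts in all 6 libraries, so its level cannot be read from these counts. Leaving RAD50 aside, 20 genes were lower, 14 of them by at least 0.5 on the log2 scale. The call was lost without NOZ replicate 2 (log2 fold change -0.45, edgeR adjusted p = 0.196) and without NOZ-R replicate 1 or 2.

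Of the 5 BRCA mediators, 3 were lower and 1 was higher, where 29.8% of all tested genes were lower and 30.4% higher. BRCA1 (chromosome 17, 43044295 to 43170245), which promotes resection and recruits BRCA2 through PALB2, measured 126, 167 and 124 CPM in NOZ and 94.3, 99.2 and 101 CPM in NOZ-R. NOZ replicate 2 was the highest library and the lines did not overlap (log2 fold change -0.50, SE 0.0978, edgeR adjusted p = 0.000577). Without that library the log2 fold change was -0.35 (edgeR adjusted p = 6.58e-06). Its obligate partner BARD1 (chromosome 2, 214725646 to 214809711) went the other way, from 36.6, 42.3 and 40.6 CPM to 46.0, 46.8 and 52.6 CPM (log2 fold change 0.28, SE 0.0819, edgeR adjusted p = 0.00885). BARD1 did not pass relative to its chromosome (0.10, edgeR adjusted p = 0.307).

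BRCA2 (chromosome 13, 32315474 to 32400266), a mediator of strand exchange, measured 35.2, 60.2 and 40.4 CPM in NOZ and 24.9, 26.3 and 26.8 CPM in NOZ-R. It fell by 0.80 log2 units (SE 0.154, edgeR adjusted p = 0.000511), and by 0.54 without NOZ replicate 2 (edgeR adjusted p = 1.23e-05), on a chromosome with a median of -0.38. BRIP1 (chromosome 17, 61681266 to 61863521), the helicase that binds BRCA1, measured 54.8, 72.3 and 51.4 CPM in NOZ and 30.5, 35.2 and 35.5 CPM in NOZ-R, the largest decrease of this group at -0.82 (SE 0.116, with edgeR adjusted p = 3.44e-05). PALB2, the bridge between BRCA1 and BRCA2, had 0.052 (edgeR adjusted p = 0.750). Without NOZ replicate 2 it passed as higher (0.23, edgeR adjusted p = 0.0411).

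Of the 8 strand exchange factors, 3 were lower (37.5%, near the 29.8% of all tested genes) and none was higher (against 30.4%). XRCC2 (chromosome 7, 152644779 to 152676165) measured 42.7, 51.4 and 43.4 CPM in NOZ and 22.2, 21.9 and 22.1 CPM in NOZ-R, libraries that were almost identical within NOZ-R. It was 2.08-fold lower (log2 fold change -1.06, SE 0.0881, edgeR adjusted p = 2.31e-07), on a chromosome with a median of -0.30. RAD52 (chromosome 12, 912077 to 990053), which anneals single strands, measured 11.4, 11.7 and 10.9 CPM in NOZ and 6.08, 7.06 and 4.22 CPM in NOZ-R, without overlap (log2 fold change -0.97, SE 0.157, edgeR adjusted p = 0.000125).

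The other members of this group had smaller estimates. RAD51D, which pairs with XRCC2, was lower at -0.22 (edgeR adjusted p = 0.0470), but 10 of 18 other settings lost it. RAD51C (chromosome 17, 58692573 to 58735611) had 12.5, 13.3 and 12.1 CPM in NOZ and 14.2, 15.0 and 14.4 CPM in NOZ-R. These did not overlap, but the log2 fold change of 0.20 ± 0.0982 did not pass (SE, edgeR adjusted p = 0.0994). RAD51B, XRCC3 and the motor proteins RAD54L and RAD54B did not pass either, with log2 fold changes of -0.27, -0.084, 0.058 and -0.38. XRCC3 shares 76.7% of its exon bases with KLC1 on the other strand, and RAD54B 59.1% with FSBP, so both are uncertain. RAD54L shares 25.1% with LRRC41 on the other strand.

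The Fanconi core complex and its anchor held the 2 largest passing decreases of the 49 genes. Of its 8 genes, 5 were lower (62.5%, against 29.8% of all tested genes) and none was higher (against 30.4%). FANCB (chromosome X, 14835961 to 14873069), a scaffold of the ubiquitin ligase module, measured 22.1, 24.5 and 21.5 CPM in NOZ and 8.62, 7.49 and 8.92 CPM in NOZ-R. It was 2.72-fold lower (log2 fold change -1.45, SE 0.107, edgeR adjusted p = 6.97e-08), and the upstream sequence printed above held none of the motifs searched. FANCG (chromosome 9, 35073835 to 35080016), a subunit of another module of the complex, measured 57.0, 46.5 and 61.7 CPM in NOZ and 28.0, 21.6 and 23.1 CPM in NOZ-R. It was 2.26-fold lower at -1.18 (SE 0.115, with edgeR adjusted p = 1.12e-06). FANCG and FANCC lie on a chromosome with a median of -0.64, and relative to it FANCG was at -0.54, a smaller decrease than those of RAD52 (-0.89), BRIP1 (-0.88) and FANCL (-0.86) relative to theirs. The lines did not overlap for FANCB or FANCG.

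FANCL (chromosome 2, 58159243 to 58241372), the ubiquitin ligase subunit itself, measured 72.1, 72.7 and 72.0 CPM in NOZ and 47.8, 45.6 and 41.9 CPM in NOZ-R. It fell by 0.68 log2 units (SE 0.0688, edgeR adjusted p = 1.58e-06), on a chromosome with a median of 0.18. Gene models on the other strand share 19.7% of its exon bases. FANCM (chromosome 14, 45135940 to 45200890), the translocase that anchors the complex to DNA, measured 19.9, 24.9 and 22.1 CPM in NOZ and 13.2, 12.0 and 13.2 CPM in NOZ-R (log2 fold change -0.80, SE 0.106, edgeR adjusted p = 2.02e-05). FANCC (chromosome 9, 95099054 to 95426796) measured 23.9, 17.2 and 18.01 CPM in NOZ and 14.4, 12.6 and 13.0 CPM in NOZ-R (log2 fold change -0.57, SE 0.128, edgeR adjusted p = 0.00167), and relative to its chromosome was at 0.068, so that 4 of the 8 remained lower. All 3 were lower in every NOZ-R library than in any NOZ library.

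The core subunits FANCA, FANCE and FANCF did not pass. FANCA (chromosome 16, 89737549 to 89816657) measured 28.9, 28.5 and 30.9 CPM in NOZ and 34.3, 31.4 and 31.4 CPM in NOZ-R, a separation of less than 1 CPM between the nearest libraries (log2 fold change 0.14, SE 0.0789, edgeR adjusted p = 0.146). FANCE had 0.13 and FANCF -0.11 (edgeR adjusted p = 0.384 and 0.281). On the other strand, ZNF276 shares 23.6% of the exon bases of FANCA, and GAS2 11.3% of those of FANCF.

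Of the ubiquitin targets of the core complex, FANCI was lower and FANCD2 did not pass. FANCD2 (chromosome 3, 10026414 to 10101930) had 57.7, 51.4 and 57.4 CPM in NOZ and 55.3, 55.8 and 52.6 CPM in NOZ-R. The lines overlapped (log2 fold change -0.023, SE 0.0707, edgeR adjusted p = 0.797). FANCI (chromosome 15, 89243949 to 89317261) measured 166, 162 and 149.7 CPM in NOZ and 133, 144 and 134 CPM in NOZ-R, without overlap (log2 fold change -0.21, SE 0.0612, edgeR adjusted p = 0.00824).

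The enzymes that act later in the pathway were mixed. BLM (chromosome 15, 90717327 to 90816165), the helicase that dissolves joined recombination intermediates, measured 32.6, 38.7 and 32.4 CPM in NOZ and 20.3, 25.6 and 24.8 CPM in NOZ-R, lower without overlap at -0.56 ± 0.104 (log2 fold change, SE, edgeR adjusted p = 0.000401). WRN, another RecQ helicase, had 33.6, 38.7 and 32.8 CPM in NOZ and 35.7, 36.3 and 33.0 CPM in NOZ-R, with overlapping lines (edgeR adjusted p = 0.978). RECQL had -0.28 (edgeR adjusted p = 0.0521), and passed as lower in 12 of 18 other settings. Without NOZ replicate 2 it had -0.13 (edgeR adjusted p = 0.206). PYROXD1 on the other strand shares 41.5% of the RECQL exon bases.

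Of the structure-specific nucleases, EME1 (chromosome 17, 50373220 to 50381483) rose and its catalytic partner MUS81 did not pass. EME1 measured 12.5, 11.02 and 11.4 CPM in NOZ and 14.7, 15.1 and 13.9 CPM in NOZ-R (log2 fold change 0.32, SE 0.103, edgeR adjusted p = 0.0162). That call was lost in 6 of 18 other settings, among them without NOZ-R replicate 2, and LRRC59 on the other strand shares 16.4% of its exon bases. MUS81 measured 18.4, 16.6 and 21.1 CPM in NOZ and 20.1, 16.5 and 13.3 CPM in NOZ-R, with overlapping lines (log2 fold change -0.16 ± 0.137, SE, edgeR adjusted p = 0.338). CFL1 and EFEMP2 on the other strand share 14.1% of the MUS81 exon bases. SLX4, the scaffold for these nucleases, had 0.16 (edgeR adjusted p = 0.271).

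POLQ (chromosome 3, 121431427 to 121546641), the polymerase of theta-mediated end joining, a route used when homologous recombination fails, was lower. It measured 47.7, 64.4 and 45.2 CPM in NOZ and 27.1, 32.4 and 32.5 CPM in NOZ-R. Its log2 fold change was -0.78 (SE 0.123, with edgeR adjusted p = 9.81e-05) and -0.61 without NOZ replicate 2 (edgeR adjusted p = 2.23e-06).

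Several of these proteins work in fixed pairs, so the ratio of the authors' FPKM values (fragments scaled by gene length and library total) of partner genes was compared in each library, without a test. Any scaling of a library cancels in such a ratio, and only its change between lines is read, since its level depends on the gene lengths the authors used. The BRCA1 to BARD1 ratio was 1.84, 2.11 and 1.63 in NOZ and 1.09, 1.13 and 1.03 in NOZ-R, lower in every NOZ-R library. The MRE11 to NBN ratio was 4.47, 3.82 and 4.002 in NOZ and 2.40, 2.38 and 2.30 in NOZ-R, also without overlap. The RAD51D to XRCC2 ratio went the opposite way, from 0.269, 0.211 and 0.265 to 0.430, 0.465 and 0.426, again without overlap.

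The ATR to ATRIP ratio was 0.858 ± 0.106 in NOZ and 0.603 ± 0.0720 in NOZ-R, and the MUS81 to EME1 ratio was 0.971 ± 0.126 and 0.688 ± 0.126 (SD, n = 3 each). Both were lower without overlap in NOZ-R. Smaller shifts were measured for TIMELESS to TIPIN (2.40 ± 0.163 and 2.07 ± 0.0472), FANCD2 to FANCI (0.527 ± 0.0491 and 0.600 ± 0.0237) and RPA2 to RPA3 (1.99 ± 0.106 and 2.24 ± 0.116). RPA1 to RPA2 overlapped between the lines (1.74 ± 0.105 and 1.73 ± 0.0859). RAD51C to XRCC3 was 0.461 ± 0.0209 and 0.571 ± 0.0935, with the XRCC3 counts uncertain as noted above.

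**Figure D3:**
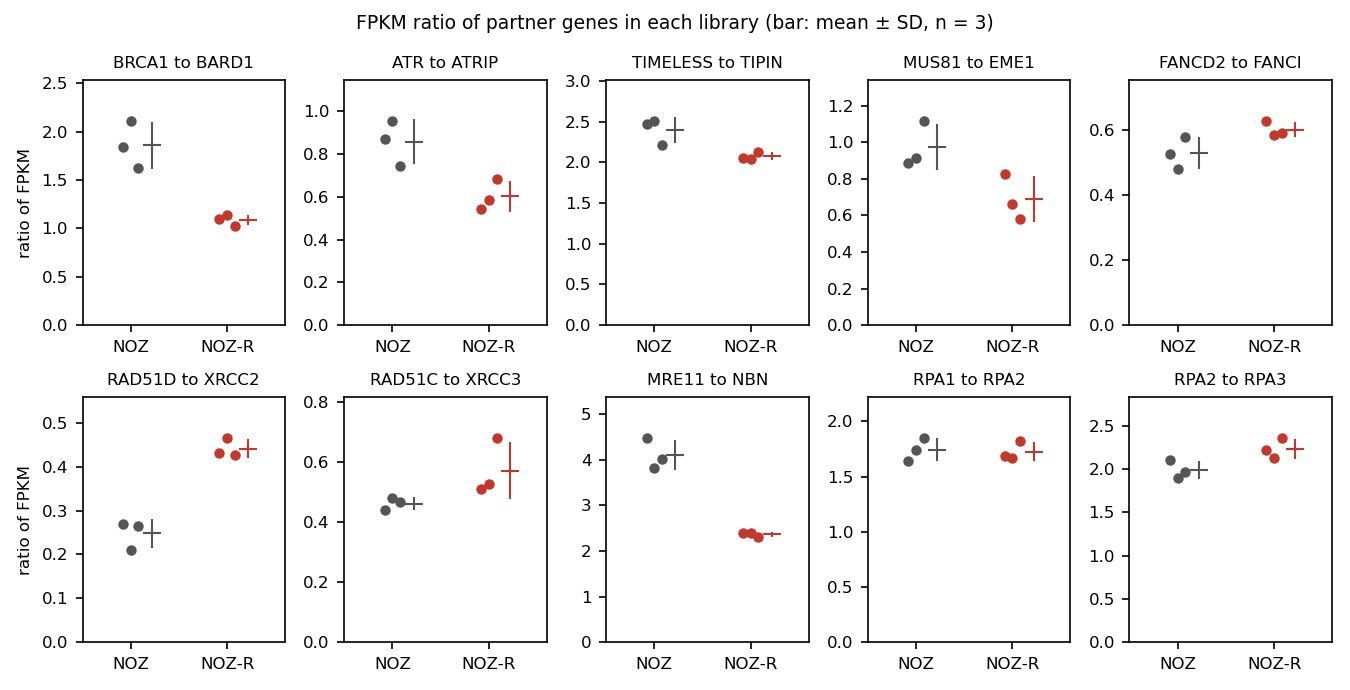
Each panel gives the FPKM ratio of a pair of partner genes (y axis, from 0) in the 3 NOZ and 3 NOZ-R libraries, with points for libraries and a bar for mean ± SD. BRCA1 to BARD1 and MRE11 to NBN show the widest gaps downward, from means of 1.86 to 1.09 and of 4.10 to 2.36.

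Levels were compared between genes in FPKM. RPA1 was the most abundant of the 49 at 48.3 ± 2.41 FPKM in NOZ and 45.6 ± 0.852 FPKM in NOZ-R, followed by RPA2 at 27.7 ± 1.98 and 26.5 ± 1.58 FPKM (SD, n = 3 each). TOPBP1 (19.8 ± 2.75 FPKM), CHEK1 (17.6 ± 1.05 FPKM) and TIMELESS (17.4 ± 0.883 FPKM) came next in NOZ and did not differ from each other beyond their spread. At the low end, leaving RAD50 aside, were RAD51C, FANCC and RAD54B, at 0.805 ± 0.0390, 1.11 ± 0.203 and 1.13 ± 0.170 FPKM in NOZ, the latter pair within each other's spread. Between the lines FANCG went from rank 11 to 22, XRCC2 from 14 to 26 and CLSPN from 28 to 17. The length implied by the authors' FPKM exceeds the exon length in GENCODE for several genes (37977 against 2412 bases for FANCL), so the order is approximate. ATM, with 39841 bases, is set low by the same division.

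Whole chromosomes differed between the lines, and this moved with some of the results. Of the 49 genes, 23 lie on chromosomes whose tested genes had a negative median, and so do 13 of the 21 lower genes, while 6 of the 7 higher genes lie on chromosomes with a positive median. After subtracting the median of the chromosome, 20 of the 21 lower genes were still below 0, the exception being FANCC. Among all tested genes, 3879 of the 4284 lower genes were likewise still below 0, so the count is not particular to the 49. FANCB was at -1.001 after subtracting the X median of -0.44. Among the higher genes MDC1 went from 0.54 to 0.21, CLSPN from 0.38 to 0.21, EXO1 from 0.27 to 0.10 and BARD1 from 0.28 to 0.10. When the chromosome medians entered the edgeR fit as offsets, an alternative chosen after seeing the data, 4 genes were higher (MDC1, TIPIN, TIMELESS and EME1) and 20 were lower. CLSPN, EXO1 and BARD1 no longer passed as higher, and ATRIP and FANCC no longer as lower (edgeR adjusted p = 0.0821 and 0.674), while RAD54B was added. Over all tested genes that fit gave 28.6% higher and 26.7% lower. The rank correlation across the 49 genes between their change and the chromosome median was 0.577, a description over genes that share chromosomes. Whether copy number differs between the lines was not tested.

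**Figure D4:**
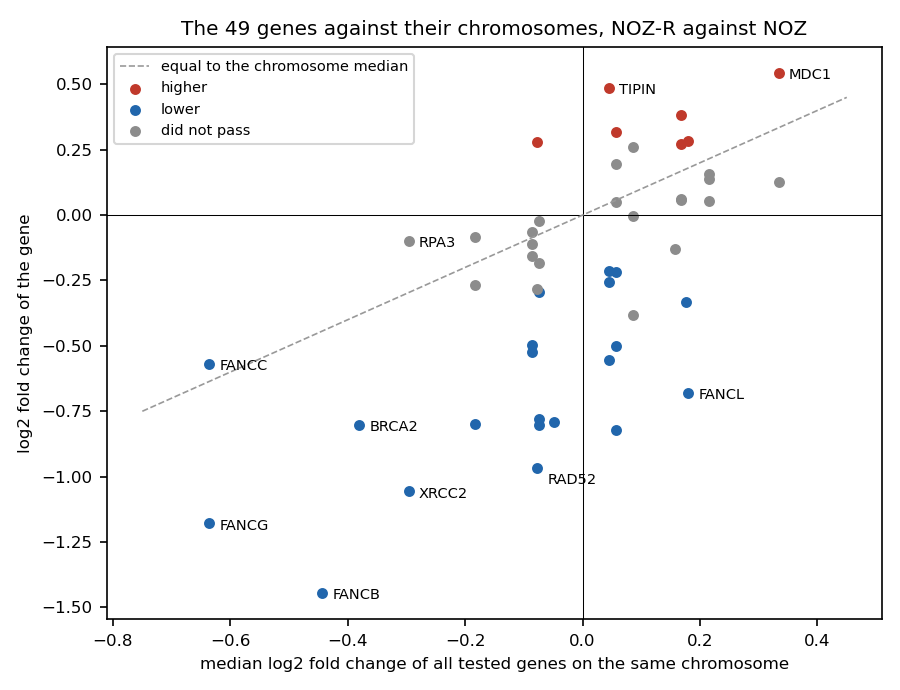
Each point is 1 of the 49 genes, with the median log2 fold change of all tested genes on its chromosome on the x axis, its own log2 fold change on the y axis and color for the call. FANCC lies near the dashed line of equality, and FANCL (-0.68 on a chromosome with a median of 0.18) lies far below it.

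NOZ replicate 2 stood apart within its line, and this touched the AT-rich genes of the pathway. Across the 49 genes, its deviation from the line's mean had a rank correlation of -0.685 with transcript GC content, against 0.552 and 0.480 for NOZ replicates 1 and 3. The same correlation was 0.464, 0.194 and -0.521 for NOZ-R replicates 1 to 3, so such spread was present in both lines. It was not particular to the 49 genes, since over all genes NOZ replicate 2 had -0.494 and NOZ-R replicates 1 and 3 had 0.286 and -0.210. NOZ replicate 2 was the highest NOZ library for 14 of the 21 lower genes, 4 of the 7 higher genes and 11 of the 21 others. Without it, 20 genes were lower, all among the 21, and 9 were higher, while over all tested genes 29.3% were lower and 31.4% higher. With a correction for GC content, 24 were lower, including all 21, and 7 were higher, 6 of them shared with the main fit. EME1 no longer passed (edgeR adjusted p = 0.0647), and NBN passed as higher (edgeR adjusted p = 0.00131). Over all tested genes that correction took the lower share from 29.8% to 36.0% and the higher share from 30.4% to 27.7%. The median transcript GC content was 41.2% for lower, 44.8% for higher and 44.0% for the remaining genes.

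Genes of the same pathway outside the 49 were counted by the same test. Of 72 tested genes, 28 were lower (38.9%, against 29.8% of all tested genes) and 18 were higher (25%, against 30.4%), with a median of -0.12. Among 23 other homologous recombination genes, 10 were lower (43.5%) and 6 higher (26.1%). The largest decrease was in DNA2, a nuclease and helicase of end resection, at -1.39 (SE 0.117, with edgeR adjusted p = 2.64e-07), on chromosome 10 with a median of -0.60. The largest increase was in MCM9, a helicase of recombination, at 0.95 (SE 0.168, with edgeR adjusted p = 0.000250), on chromosome 6 with a median of 0.33. Among 18 other Fanconi genes, 3 were lower (16.7%) and 4 higher (22.2%), both below the shares of all tested genes. RAD18, a ubiquitin ligase for PCNA, was at -0.89 (SE 0.0940, with edgeR adjusted p = 2.25e-06). FAAP20, a core complex partner, was at 0.74 (SE 0.0990, with edgeR adjusted p = 2.09e-05).

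Among 31 other checkpoint and break-signalling genes, 15 were lower (48.4%, against 29.8% of all tested genes) and 8 higher (25.8%, against 30.4%). The cohesin subunit SMC3, also on chromosome 10, changed by -1.32 (SE 0.122, with edgeR adjusted p = 6.48e-07) and BABAM2, a subunit of the BRCA1-A complex, by 0.52 (SE 0.0906, with edgeR adjusted p = 0.000227). WEE1, the kinase that restrains CDK1 and mitotic entry, was singled out after its values were seen. It averaged 129.7 ± 1.70 CPM in the parental libraries against 62.9 ± 1.93 CPM in the resistant ones (SD, n = 3 per line) (log2 fold change -1.04, SE 0.0589, edgeR adjusted p = 4.72e-09).

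Many of the 49 genes are transcribed mainly in S and G2 phase, so markers of those phases are given beside them. Of 24 tested G2 and mitosis genes, 19 were lower (79.2%, against 29.8% of all tested genes) and 3 higher (12.5%, against 30.4%). Their summed levels were 5674 to 6141 CPM in NOZ and 4255 to 4450 CPM in NOZ-R. Of 34 S phase genes, 10 were lower (29.4%) and 14 higher (41.2%), with sums of 3409 to 3584 CPM in NOZ and 3672 to 3720 CPM in NOZ-R. The part of cell cycle distribution in the changes above was not tested, and fewer cells in a phase and less RNA per cell cannot be told apart in bulk RNA.

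The epithelial keratins KRT7, KRT8, KRT18 and KRT19 were abundant in both lines, with line means of 247.7 to 1127 CPM, and EPCAM averaged 73.1 and 49.5 CPM in NOZ and NOZ-R, while CDH1, which encodes E-cadherin, was low in both (1.03 and 0.290 CPM). Markers of other cell types were low. The 8 fibroblast markers summed to 3.15 to 3.72 CPM in NOZ and 7.24 to 7.93 CPM in NOZ-R, with COL1A2, DCN, LUM and THY1 at 0 in NOZ. The 9 leukocyte and endothelial markers summed to 4.82 to 8.09 CPM in NOZ and 12.4 to 14.4 CPM in NOZ-R, most of the latter from PECAM1 (9.21 CPM), with MS4A1 at 0 in all 6 libraries. Their part in the results was not tested.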

How the data were processed

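Whole-number counts of reads per gene, without normalization, and an FPKM table were deposited by the authors. The submitters' processing notes name fastp 0.22.0 and GRCh38. Aligner, counter, strand setting and annotation: not given in the sources used here. The deposited FPKM values equal the count divided by the library total and 1 fixed length per gene, with no composition correction.

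Total counts were 14136037 to 19244923 per library, which limits precision for genes of a few CPM. Samples were grouped by title. Counts were fitted with edgeR 4.0.16 in R 4.3.3 (filterByExpr, TMM, glmQLFit and glmQLFTest, Benjamini-Hochberg adjustment over 14386 genes, threshold 0.05). The SE is the log2 fold change divided by the square root of F. Positions, exon overlaps and GC content are from GENCODE 29 (GRCh38), found by symbol for 97.0% of tested genes. Chromosome medians are over tested genes.

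The 49 genes, the other lists and the tests were chosen with earlier results of these data known. Values in every library were given for genes with a passing change of at least 0.5 on the log2 scale, for the extremes of each role, and always for ATM, ATR, CHEK1, CHEK2, BRCA1, BRCA2, FANCD2 and POLQ. From the other pathway lists the largest passing increase and decrease were named. Remaining genes are given by fold change; TIPIN and NBN were given in full after their values were seen.

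The script was tested on simulated counts for this comparison over 14172 genes. It recovered 92.9% of log2 changes of 1 and 65.6% of changes of 0.5, with 3.73% false calls. Only 200 genes were changed there, balanced up and down, with no effect of GC content put in. In the data 60.2% of tested genes passed, so the rate of false calls does not carry over to them. Replicate pairs had a mean chi-square per gene of 2.18 to 11.5, above the value near 1 of sampling noise. The highest values, 11.5 and 9.99, were both in pairs with NOZ replicate 2, and the other pairs had 2.18 to 4.13. All 6 libraries were kept, and fits leaving out each library were run beside the main fit. Other settings were DESeq2 1.42.0 size factors and Wald test, upper-quartile factors, library size only, other filters, limma 3.58.1 on log2 FPKM, a replicate block, a stricter threshold, a GC correction, subtraction of chromosome medians without a new test, the same medians as offsets in a new fit and leaving out each library.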

Additional observations from a re-analysis of the deposited data

How the results depend on the processing

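Of 882 tested values (49 genes in 18 other settings), 799 kept their side of the threshold, 39 lost their call, 43 gained one and 1, FANCC with chromosome medians as offsets (0.068), changed sign and did not pass. Subtracting chromosome medians without a new test, which can show a change of sign only, put FANCC at 0.0683. With the offsets, an alternative chosen after seeing the data, 4 of the 49 genes were higher and 20 lower, 19 of them among the 21, and 12 of the other pathway genes were higher. The count of higher genes among the 49 was 3 with library size only, 3 with limma on log2(FPKM + 1) and 3 with limma on log2(FPKM + 0.1), against 7. These settings share a scaling by library total. Over all tested genes they gave 22.4% to 23.1% higher, against 30.4% in the main fit. For the other pathway genes the higher count was 8 in each of these 3 settings and 10 at a threshold of 0.01, against 18. At that threshold 24.9% of all tested genes were higher. Leaving out each library gave 6 to 9 higher and 19 to 22 lower of the 49, and 15 to 20 higher and 26 to 29 lower of the other pathway genes. Over all tested genes these fits gave 27.0% to 31.4% higher and 25.7% to 29.3% lower.

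With the replicate number as a block, 8 of the 49 genes were higher and 21 lower, where 30.1% and 29.1% of all tested genes were. The numbers do not pair the samples by design, and the correlations of same-numbered deviations from the group means were 0.0682, -0.0224 and -0.0365. NOZ replicate 2 correlated best with NOZ-R replicate 3 (0.104). Exon sharing above 10% with another gene model affects 14 of the 49 genes, 5 of the 21 lower and 2 of the 7 higher. Counts in the shared bases cannot separate genes on the same strand, or on opposite strands if strand was not used. Depth limits RAD50, RAD54B, RAD51B and RAD52 most.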
